A study of Homo sapiens with 6 samples.

Results

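Long intergenic noncoding RNAs (lincRNAs) with measurable expression were followed in human kidney tubule cells given cisplatin. They were chosen by their counts: rows of the count table with the gene type lincRNA and a sum of 200 or more over the 6 libraries. Of 28565 genes, 110 met the rule. The table held 2881 lincRNA rows, of which 128 reached that sum. The rule left out 18 of these. It excludes rows on the X or Y chromosome and symbols that begin with CH507-, SNHG or RN7. It also excludes the symbols MALAT1, NEAT1, TUG1, NORAD, GAS5, MIR22HG, PVT1 and KCNQ1OT1, of which NORAD is listed under an older symbol and stayed in. The rule used the level over all libraries and not the difference between groups. RP11-352M15.2 lay just inside it with a sum of 200 counts, followed by LINC01006 and RP11-182L21.6 with 208 each. RNU12 lay just outside it with 197 counts, followed by RP11-326N17.2 and RP11-384K6.6 with 195 each.

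All 6 RNA-seq libraries came from HK-2, an immortalised line of proximal tubule cells, after depletion of ribosomal RNA. Every library, at both times, was from cells transfected with a plasmid that overexpresses a long noncoding RNA named LncR2 in the sample titles, and the cells were kept for 48 h after transfection. The labels give 3 libraries as cisplatin for 24 h and 3 as cisplatin for 0 h. Cells with the control plasmid were not analysed here, so the difference is between times in cells with the plasmid, and cisplatin cannot be told apart from time after transfection. The level of LncR2 itself was not analysed here.

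Total counts were 6022268, 7018785 and 7248754 in the 24 h libraries, against 5039050, 5028881 and 5844246 in the 0 h libraries. The third 0 h library stood apart: on the first principal component of all tested genes the 24 h libraries lay at 6.29, 17.8 and 22.9, and the 0 h libraries at -23.8, -24.5 and 1.28. Of 6 epithelial markers, 5 averaged at least 1 CPM (counts scaled to library size), with CDH1 under it. Of 19 proximal tubule markers 6 did so, PAX8 and GGT1 among them, and 5 had no row analysed here, while transporters that define the segment in the kidney, such as SLC34A1, CUBN and AQP1, were under it. Of markers of other cells, 3 of 7 for fibroblasts (COL1A1, LUM and COL1A2) reached 1 CPM, with a summed level of 16.8 to 20.6 CPM at 24 h and 15.9 to 18.7 CPM at 0 h. So did 1 of 6 for endothelium (ERG; sums of 1.66 to 2.99 CPM at 24 h and 2.18 to 2.59 CPM at 0 h) and 1 of 4 for podocytes (PODXL; 2.99 to 3.82 CPM at 24 h and 4.62 to 7.34 CPM at 0 h). None of 6 for leukocytes did (0.138 to 1.66 CPM at 24 h and 0.795 to 1.2 CPM at 0 h). Their part in the results was not tested. In bulk RNA, fewer cells with an RNA and less of it per cell cannot be told apart.

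LincRNAs are made by RNA polymerase II from loci between protein-coding genes, are usually capped, spliced and polyadenylated, and have no long conserved reading frame. Some serve as the primary transcript of a microRNA, some act on genes near their own locus, and some are scaffolds for RNA-binding proteins. Several are known targets of p53, the transcription factor that platinum damage to DNA activates in tubule cells. The gene type in the table also took in 4 small structured RNAs of another kind. These were RMRP, the RNA of the RNase MRP complex that processes ribosomal RNA precursors, TERC, the template RNA of telomerase, RNU11, the U11 RNA of the minor spliceosome, and BCYRN1, a brain-enriched RNA related to Alu elements. LINC00657 is an older symbol of NORAD, a repeat-rich RNA that binds Pumilio proteins, so that gene stayed among the 110 although the rule names NORAD. The GENCODE 29 annotation, which matched 108 of the 110, types 93 of them as lincRNA. It types 8 as pseudogenes, GS1-124K5.11 among them, 2 as protein-coding and the rest as other noncoding RNAs. All 110 are called lincRNAs here after the type in the table.

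The sequences shown here belong to the RNAs whose level differed between the times, together with the microRNAs that such loci carry. RP11-301G19.1 (GRCh38 chr6:67887646-67889339, minus strand) and AL691447.2 (chr9:94332476-94360948, plus strand; a GENCODE 29 name for a gene the table lists by its clone) had the largest differences among the lincRNAs called. The first 200 bases of their annotated transcripts, of 1605 and 2162 bases, are given with the AATAAA hexamer in capitals.
RP11-301G19.1: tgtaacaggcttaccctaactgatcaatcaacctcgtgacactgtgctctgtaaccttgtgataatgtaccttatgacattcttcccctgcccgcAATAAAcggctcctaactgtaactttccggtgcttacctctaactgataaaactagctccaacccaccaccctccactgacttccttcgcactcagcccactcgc
AL691447.2: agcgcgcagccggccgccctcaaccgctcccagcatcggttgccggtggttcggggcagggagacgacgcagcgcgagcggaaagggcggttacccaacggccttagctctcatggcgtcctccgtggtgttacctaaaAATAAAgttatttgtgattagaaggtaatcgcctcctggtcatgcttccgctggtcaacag
RNU11 (chr1:28648600-28648730, plus strand) is shown whole, 131 bases, with the uridine-rich stretch of the kind that Sm proteins bind in capitals.
RNU11: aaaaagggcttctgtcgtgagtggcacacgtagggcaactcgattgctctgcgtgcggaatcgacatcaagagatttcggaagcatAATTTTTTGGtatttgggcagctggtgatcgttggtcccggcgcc
CTC-231O11.1 (chr5:160438594-160487426, plus strand), now named MIR3142HG, carries the miR-146a hairpin inside an exon. Bases 241 to 360 of its 2301-base transcript are shown, with both mature arms of miR-146a in capitals.
CTC-231O11.1: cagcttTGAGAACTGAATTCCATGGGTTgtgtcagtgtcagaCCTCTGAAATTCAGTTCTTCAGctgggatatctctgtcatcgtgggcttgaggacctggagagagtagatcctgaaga

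In all, 11 of the lincRNAs hold 14 microRNA genes of the GENCODE 29 annotation on their own strand. The mature forms most used in what follows, from RefSeq (GRCh38.p14), are given with the seed, bases 2 to 8, in capitals, since the seed sets most target pairing. Hosts at separate loci share a seed in the case of let-7i and miR-4458, and MIR4435-2HG and LINC00152 carry the same miR-4435. The seed is also shared within a host, by miR-30a and miR-30c in LINC00472 and by miR-181a and miR-181b in MIR181A1HG.
hsa-miR-146a-5p: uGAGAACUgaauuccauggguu
hsa-let-7i-5p: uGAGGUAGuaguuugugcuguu
hsa-miR-4458: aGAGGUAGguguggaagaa
hsa-miR-181a-5p: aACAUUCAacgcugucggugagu
hsa-miR-181b-5p: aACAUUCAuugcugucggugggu
hsa-miR-30a-5p: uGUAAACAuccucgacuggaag
hsa-miR-30c-5p: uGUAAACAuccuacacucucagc
hsa-miR-155-5p: uUAAUGCUaaucgugauagggguu
hsa-miR-29b-3p: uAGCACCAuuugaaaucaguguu
hsa-miR-4435: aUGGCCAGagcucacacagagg

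The lincRNAs were mostly scarce, and 1 of them held most of their reads. Per length, their median level was 2.64 FPKM (fragments per kilobase of gene, scaled to library size), against 5.2 FPKM for the 11972 protein-coding genes tested, and 82 of the 110 averaged under 5 FPKM. RMRP averaged 21100 FPKM over the 6 libraries, TERC 172, RNU11 73.3 and LINC00657 37.0 FPKM. The next in order were RP11-14N7.2 (13.7 FPKM), RP11-701H24.4 (13.5), LINC00973 (12.6), CTB-151G24.1 (12.5), LINC00958 (11.9) and SFTA1P (11.3), whose levels lie close together. RP11-14N7.2 and RP11-701H24.4 each match another annotated gene over 100% of their longest transcript at 95% identity or more, SNHG14 in the case of RP11-701H24.4, so their reads are uncertain. The FPKM of BCYRN1, 5.21, is not comparable per length: counts over FPKM imply a gene model of 13463 bases, whereas the annotated RNA has 200, and in no other lincRNA was the implied length over 2 times that of the annotated exons. It was shorter in some, such as RP11-553L6.5 with 1680 bases implied and 15214 annotated and LINC00152 with 2504 and 17693, so levels per length depend on the gene model.

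RMRP took 76.7%, 86.8% and 83.6% of all lincRNA counts in the 24 h libraries and 78.8%, 77.7% and 79.9% in the 0 h libraries. Scaled by TMM, its level was 6800, 13700 and 9890 CPM at 24 h, against 8230, 7690 and 8020 CPM at 0 h. The 24 h libraries lay on both sides of the 0 h libraries, and the fitted difference of 0.34 ± 0.19 (log2, SE) did not pass (edgeR's quasi-likelihood test, Benjamini-Hochberg adjusted p = 0.354). The annotation holds a second RMRP copy over 98.5% of the RNA, so its reads may be pooled with those of the copy. The summed level of all 110 followed RMRP: it was 8930, 15600 and 11900 CPM of the unscaled library total at 24 h, against 10400, 10000 and 9730 at 0 h. The ratio of the means was 1.21 (exact two-sided permutation test over 20 splits, p = 0.4, where 3 against 3 cannot go below 0.1). Without RMRP, a choice made after seeing the data, the sum was 2080, 2050 and 1950 at 24 h, against 2200, 2240 and 1960 at 0 h, a ratio of 0.951 (exact p = 0.3).

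**Figure D1:**
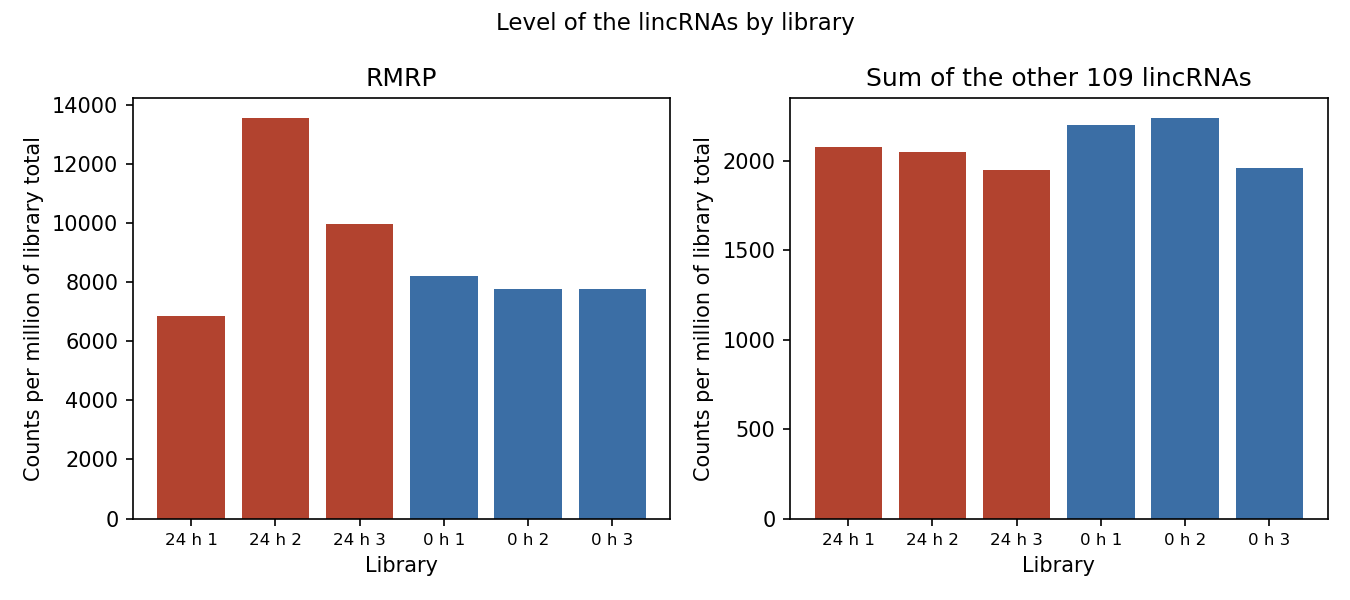
Level in CPM of the unscaled library total (y axis) in each library (x axis) for RMRP, on the left, and for the sum of the other 109 lincRNAs, on the right; red bars are the 24 h and blue bars the 0 h libraries. RMRP alone carries the spread of the 24 h libraries, while the other 109 together lie between 1950 and 2240 in all 6.

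Between 24 h and 0 h, 6 lincRNAs fell and none rose at an adjusted p under 0.05. The 6 are 5.45% of the 110. Of the 13389 genes tested, 2.08% fell and 2.94% changed in either direction. All 110 passed the filter on low counts. With none higher against 0.866% of all genes, edgeR gave 4 higher at an unadjusted p under 0.05 (8.22% of all genes). DESeq2 called 0 higher (0.957% of all genes), and limma on log2(FPKM + 1) called 0 (0.213%). At an unadjusted p under 0.05, 20 were lower (9.93% of all genes). At least 2-fold lower were 2, RP11-301G19.1 and AL691447.2 (0.732% of all genes). The 24 h libraries lay wholly below the 0 h libraries in 15 lincRNAs and wholly above in 8, against 11.7% and 10.9% of all genes. The median fitted difference was -0.06, with quartiles at -0.34 and 0.06, against a median of 0.00 over all genes tested.

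Leaving out the third 0 h library gave 15 lower, 6 of them at least 2-fold, and 2 higher, where 6.72% of all genes then tested were lower and 4.18% higher. Leaving out any 1 of the other 5 gave 1 to 3 lower and 0 higher. Of all genes, 0.672% to 1.53% were then lower and 0.153% to 0.734% higher. Scaling by the library totals implied by the FPKM table, in place of TMM, moved the median of all genes by 0.24. It gave 4 lower and 10 higher (1.46% and 17.6% of all genes), with a median of 0.18 for the lincRNAs. Such a change moves all genes by nearly the same amount, so it does not test the place of the lincRNAs among them. The 10, on that scale and with their log2 differences, included RMRP (0.60), TERC (0.43), LINC00973 (0.58), LUCAT1 (0.52), CCAT1 (0.75) and AC058791.1, which is LINC-PINT (0.59).

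**Figure D2:**
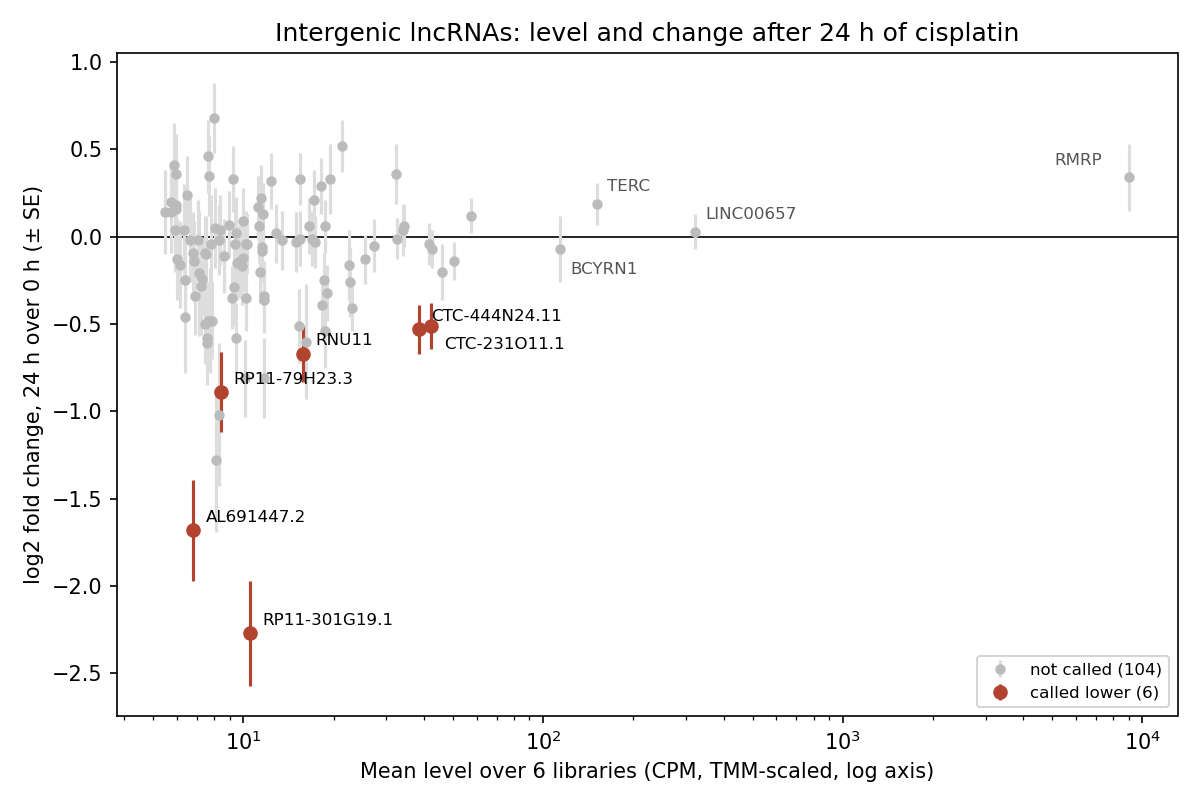
Fitted log2 fold change, 24 h over 0 h, with its SE (y axis) against mean level in CPM (log x axis) for the 110 lincRNAs; the 6 called lower are red. Most points lie within 1 of 0 on the log2 scale, the called RNAs range from -2.27 to -0.51, and RMRP stands far to the right of the others.

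RP11-301G19.1 had the largest difference. This lincRNA has only a clone-style name, and its nearest coding gene, the adhesion receptor gene ADGRB3, is 746028 bases away. Its level was 5.61, 3.33 and 2.06 CPM at 24 h, against 18.5, 22.1 and 11.7 CPM at 0 h. All 24 h libraries were below all 0 h libraries, and the third was the lowest within each time. Raw counts were 34, 23 and 15 at 24 h and 93, 113 and 66 at 0 h. It fell by 2.27 ± 0.30 (log2, SE, n = 3 each; edgeR's quasi-likelihood test, adjusted p = 0.00056), or to 0.207 of its 0 h level. The call held without any single library, and the adjusted p ranged from 7.59e-21 to 0.0897 over 19 alternatives, of which the 3 limma fits on FPKM did not call it.

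AL691447.2 was 3.46, 2.75 and 3.43 CPM at 24 h, against 11.8, 13.5 and 6.0 CPM at 0 h. The groups did not overlap, and the third 0 h library was closest to the 24 h level. Counts were 21, 19 and 25 at 24 h and 59, 69 and 34 at 0 h, and it fell by 1.68 ± 0.29 (adjusted p = 0.00485, edgeR's quasi-likelihood test). Without the second 24 h library the adjusted p was 0.055, and over all alternatives it ranged from 7.21e-09 to 0.147. Part of its transcript, 18.5%, is near-identical to MFSD14C, a relative of the transporter gene next to it. That neighbour, listed as HIATL1 and 13603 bases away, was 174, 172 and 168 CPM at 24 h and 168, 162 and 183 CPM at 0 h, a difference of 0.00 ± 0.10.

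The U11 RNA, RNU11, was 10.4, 13.3 and 13.0 CPM at 24 h, against 19.5, 20.2 and 18.9 CPM at 0 h. The 0 h libraries agreed closely and all lay above the 24 h libraries. It fell by 0.67 ± 0.16 (adjusted p = 0.0295, edgeR's quasi-likelihood test; range over the alternatives 0.00447 to 0.216). GENCODE 29 has a second RNU11 gene model over the same bases, so how its reads were assigned is uncertain. Of the other RNAs of the minor spliceosome, which removes a rare class of introns, RNU4ATAC was 2.8, 2.6 and 3.43 CPM at 24 h and 4.19, 5.88 and 4.77 CPM at 0 h (-0.74 ± 0.28, adjusted p = 0.163). RNU12 has 2 rows in the table, which differed by -0.47 ± 0.22 and 0.32 ± 0.25 (adjusted p = 0.264 and 0.55). These other RNAs were chosen after the value of RNU11 was seen.

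MIR3142HG (CTC-231O11.1), the host of miR-146a, a microRNA that restrains signalling from Toll-like and interleukin-1 receptors, was 37.4, 31.3 and 36.2 CPM at 24 h, against 57.2, 47.4 and 44.8 CPM at 0 h. The groups did not overlap. It fell by 0.51 ± 0.13 (adjusted p = 0.0417, edgeR's quasi-likelihood test; range over the alternatives 0.0012 to 0.314). The nearest coding gene, PTTG1, which encodes securin, an inhibitor of sister-chromatid separation, differed by -0.27 ± 0.13 (adjusted p = 0.276, same test).

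RP11-79H23.3, now LINC02605, was 6.76, 6.22 and 4.66 CPM at 24 h, against 13.8, 10.4 and 8.47 CPM at 0 h, with no overlap, and fell by 0.89 ± 0.23 (adjusted p = 0.0485, edgeR's quasi-likelihood test; range 0.00105 to 0.286). Its nearest coding gene is IL7, the gene of a lymphocyte growth factor, which was near 2 CPM in every library and differed by 0.09 ± 0.35. CTC-444N24.11 on chromosome 19 was 35.1, 32.9 and 26.6 CPM at 24 h, against 48.8, 49.2 and 38.7 CPM at 0 h, and fell by 0.53 ± 0.14 (adjusted p = 0.049, edgeR's quasi-likelihood test; range 0.000455 to 0.34). It is the 1 called lincRNA of the 6 whose nearest coding gene was called too. That gene, the zinc finger gene ZNF460, 10736 bases away, was 103, 94.2 and 104 CPM at 24 h and 143, 131 and 130 CPM at 0 h, and fell by 0.42 ± 0.10 (adjusted p = 0.0294). RNU11, MIR3142HG, RP11-79H23.3 and CTC-444N24.11 were each called without the third 0 h library and lost the call without any 1 of the other 5.

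**Figure D3:**
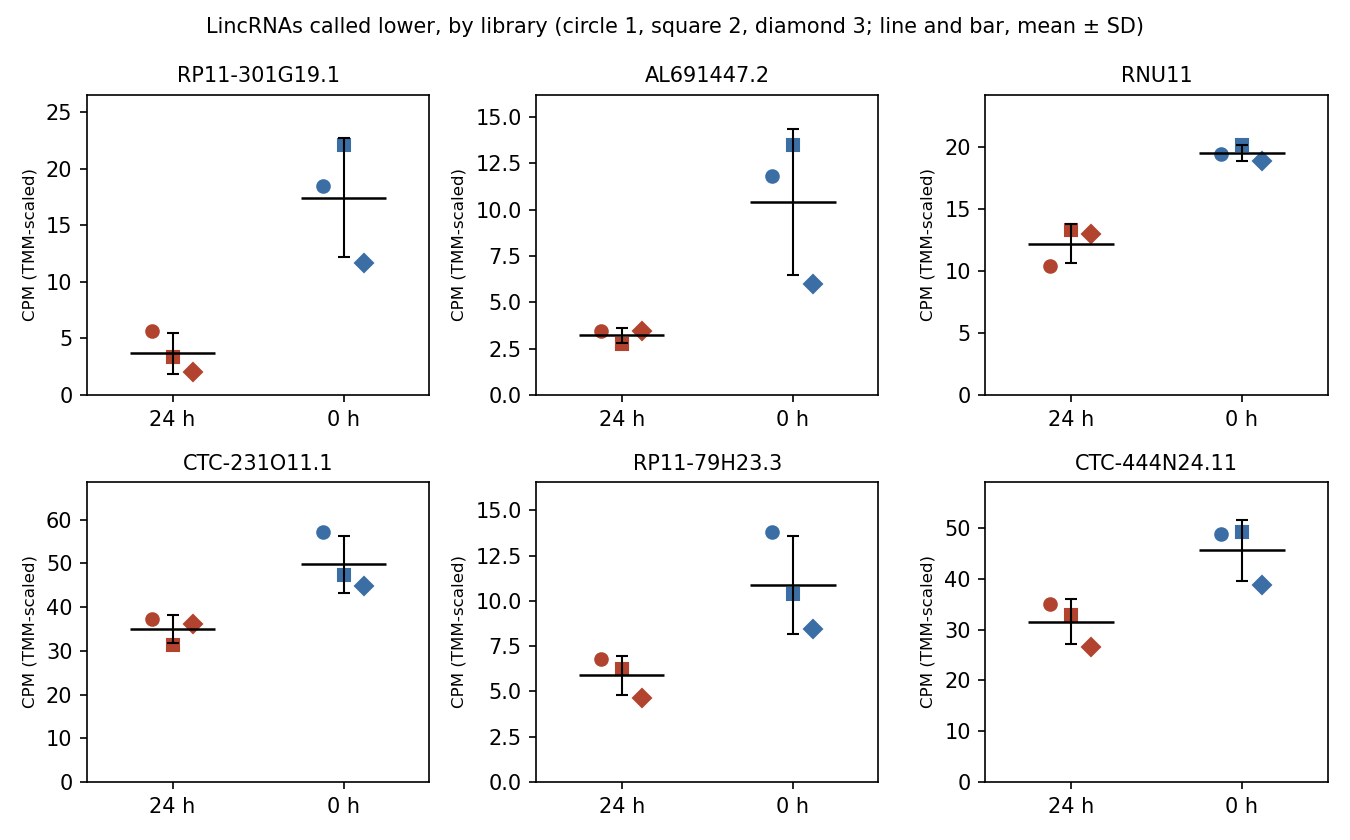
TMM-scaled CPM (y axes, from 0) of the 6 lincRNAs called lower, by library, with 24 h in red on the left and 0 h in blue on the right of each panel; lines and bars are mean ± SD of 3 libraries. In each panel all 24 h points lie below all 0 h points, and the third 0 h library (diamond) is the lowest of the 0 h points.

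Of the 11 lincRNAs with an annotated microRNA, MIR3142HG fell and none rose (9.09% lower, against 2.08% lower and 0.866% higher of all genes, with 1 call in so short a list). Their median difference was -0.14, against 0.00 for all genes, and 0.10, against 0.24, with the FPKM totals. Mature microRNAs were not measured here, and host levels need not follow them. RP11-631N16.2, the host of let-7i, was 9.90, 7.53 and 7.68 CPM at 24 h, against 11.2, 12.3 and 7.24 CPM at 0 h, with overlap (-0.29 ± 0.22). MIR4458HG, whose microRNA has the same seed, was 9.90, 11.7 and 13.7 CPM at 24 h and 9.77, 11.4 and 10.4 CPM at 0 h, a difference of 0.17 ± 0.18. RP11-2B6.2, the let-7a-1 host by its current symbol MIRLET7A1HG, was 6.93, 6.37 and 6.72 CPM at 24 h and 9.57, 6.66 and 7.41 CPM at 0 h (-0.24 ± 0.21). It is not among the 11, since its GENCODE 29 gene holds no annotated microRNA. Near-identical sequence in LINC02603 covers 78.8% of it, so its reads are uncertain. The groups of MIR4458HG and RP11-2B6.2 also overlapped.

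MIR181A1HG, the host of miR-181a and miR-181b, averaged 10.6 ± 0.765 CPM at 24 h and 12.2 ± 1.78 CPM at 0 h (SD, n = 3 each), a difference of -0.20 ± 0.18. LINC00472, which spans the genes of miR-30a and miR-30c, was 63.5, 57.6 and 58.8 CPM at 24 h and 56.4, 55.9 and 53.7 CPM at 0 h. The groups did not overlap, yet the difference of 0.12 ± 0.10 did not pass (adjusted p = 0.61). MIR155HG, the host of the inflammatory miR-155, was 6.10, 7.81 and 7.13 CPM at 24 h and 4.98, 8.04 and 8.30 CPM at 0 h, a difference of -0.02 with a 95% interval of -0.51 to 0.47. MIR4435-2HG and LINC00152 (CYTOR) each hold a copy of the miR-4435 gene and share near-identical sequence over 68.2% of the MIR4435-2HG transcript, so their reads may be split between them. They differed by -0.14 ± 0.11 and -0.02 ± 0.17.

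**Figure D4:**
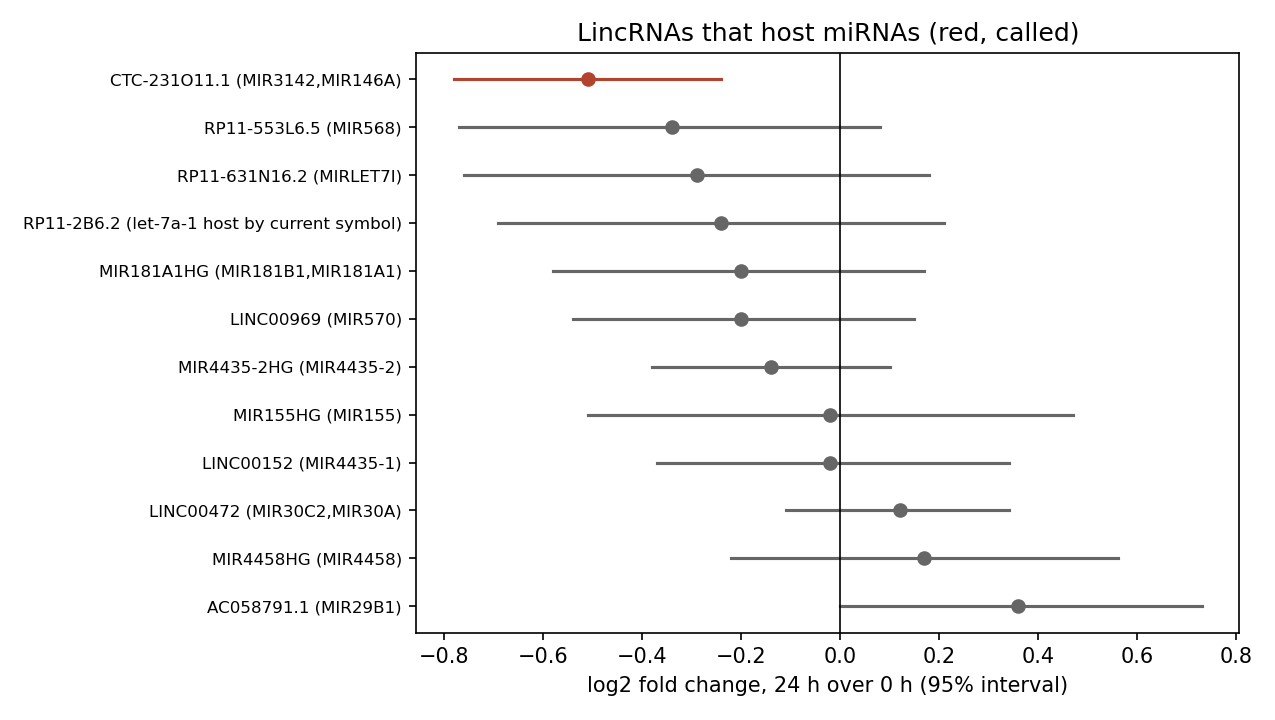
Fitted log2 fold change, 24 h over 0 h, with its 95% interval (x axis) for the lincRNAs that host microRNAs (rows, microRNA genes in parentheses). The MIR3142HG interval, in red, lies below 0 from -0.78 to -0.24; the others include 0, with AC058791.1 (LINC-PINT) the highest at 0.36.

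The list of p53 and DNA damage lincRNAs, which does not hold NORAD, had 1 entry among the 110. AC058791.1 matched LINC-PINT, a p53 target whose gene holds miR-29b-1. It was 44.5, 28.7 and 35.9 CPM at 24 h, against 33.3, 29.6 and 22.1 CPM at 0 h, with overlap, and differed by 0.36 ± 0.17 (adjusted p = 0.28, edgeR's quasi-likelihood test). Among the 3 lincRNAs of inflammation and oxidative stress, MIR3142HG fell, and LUCAT1, a target of the antioxidant factor NRF2, was 21.4, 20.3 and 18.2 CPM at 24 h and 15.8, 19 and 14.3 CPM at 0 h (0.29 ± 0.16, adjusted p = 0.346).

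Of 9 lincRNAs linked to growth and tumours, none was called, and their median difference was -0.01, against 0.00 for all genes (0.22 against 0.24 with the FPKM totals). CCAT1, an enhancer-derived RNA upstream of MYC, was 27.7, 24.9 and 23.0 CPM at 24 h, against 18.5, 20 and 14.3 CPM at 0 h. The groups did not overlap, and the difference of 0.52 ± 0.15 had an adjusted p of 0.0868 (edgeR's quasi-likelihood test). LINC00662 was 7.09, 6.80 and 11.5 CPM at 24 h, against 13.0, 19.2 and 12.7 CPM at 0 h, also without overlap (-0.81 ± 0.23, adjusted p = 0.0714). CRNDE, LINC00467, LINC01116, LINC00511 and LINC00665 lay between -0.08 and 0.09, and LINC00973 at 0.33 ± 0.20. LINC00467 and LINC00998, which were typed as lincRNAs and are now known to encode small membrane or mitochondrial proteins, differed by 0.09 ± 0.19 and -0.01 ± 0.16.

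HCG22, a lincRNA of the major histocompatibility region named here after its values were seen, was 10.7, 9.41 and 9.46 CPM at 24 h, against 5.58, 5.88 and 6.89 CPM at 0 h. The groups did not overlap, and it had the largest positive difference of the 110, 0.68 ± 0.20 (adjusted p = 0.0803). Its coding neighbour MUC22, a mucin gene 18048 bases away, was 3.30, 3.47 and 2.74 CPM at 24 h and 1.99, 1.37 and 1.24 CPM at 0 h, a difference of 1.04 ± 0.35 (adjusted p = 0.119). The other 2 lincRNAs higher at an unadjusted p under 0.05 besides HCG22 and CCAT1 were CTD-2600O9.1 (0.46 ± 0.21) and CTD-2015G9.2 (0.33 ± 0.15).

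Of the other abundant RNAs none was called. LINC00657 (NORAD) was 334, 333 and 308 CPM at 24 h and 339, 308 and 307 CPM at 0 h, a difference of 0.03 with a 95% interval of -0.18 to 0.24. TERC was 145, 191 and 145 CPM at 24 h and 159, 126 and 137 CPM at 0 h (0.19 ± 0.12). Near-identical sequence in another annotated gene covers 86.2% of LINC00657 (OVCH1-AS1) and 81.0% of TERC (RF00024), so how their reads were assigned is uncertain. BCYRN1 was 73.2, 155 and 104 CPM at 24 h and 103, 122 and 124 CPM at 0 h (-0.07 ± 0.19), and its first and second 24 h libraries were its lowest and highest. Its counts may come from the longer gene model implied above, so they need not be those of the annotated RNA. Near-identical sequence in BUB3 covers 70.0% of that RNA. LINC00958 averaged 41.7 ± 0.642 CPM at 24 h and 43.8 ± 2.79 CPM at 0 h, and SFTA1P, a pseudogene of lung surfactant-associated type, 12.9 ± 0.982 and 12.7 ± 2.17 CPM at 24 h and at 0 h. CTB-151G24.1, now named ERVK-28 after an endogenous retrovirus, was 7.42, 6.66 and 8.64 CPM at 24 h and 9.57, 10.8 and 13.6 CPM at 0 h, without overlap (-0.58 ± 0.20, adjusted p = 0.131).

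The calls were counted by name and place. Of the 54 lincRNAs that carry only a clone-style name in the table, 5 fell (9.26%), and of the 56 with another name 1 fell (1.79%). All 6 called lie clear of coding genes, as do 85 of the 108 lincRNAs that matched GENCODE 29. Another 10 overlap a coding gene on the same strand and 13 on the other. Among the other lincRNA rows tested, mostly with too few counts for the rule, 10 of 255 fell (3.92%). Of protein-coding genes 223 of 11972 fell (1.86%), and of the 4528 coding genes within the lincRNAs' 10th to 90th percentile of level 60 fell (1.33%). These shares are descriptions, and no test was made between them.

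The loci lay at a median of 16666.5 bases from the nearest protein-coding gene of the table, and 22 lay over 100000 bases away. A tested neighbour was found for 88 lincRNAs, with 85 distinct genes, of which 2 fell and 1 rose, where 2.94% of all genes changed. Besides ZNF460, NDE1, a gene of mitotic spindle and centrosome function, was 15.5, 16.5 and 17.7 CPM at 24 h, against 28.5, 28.4 and 25.4 CPM at 0 h (-0.72 ± 0.14, adjusted p = 0.00813, edgeR's quasi-likelihood test). The lincRNA CTB-193M12.5 lies within it on the same strand, so their reads cannot be fully told apart, and it was 8.08, 7.53 and 8.64 CPM at 24 h and 11, 10 and 10.1 CPM at 0 h (-0.35 ± 0.18). HES4, a transcription factor gene of the Notch pathway, was 26.1, 36.0 and 22.5 CPM at 24 h, against 14.6, 17.2 and 15.9 CPM at 0 h, and rose by 0.83 ± 0.18 (adjusted p = 0.0179). RP11-54O7.17, 911 bases from it, was 7.92, 7.38 and 4.39 CPM at 24 h and 7.78, 12.2 and 3.0 CPM at 0 h (-0.21 ± 0.36). Across the 88 pairs, the difference had the same sign in 53, with a Spearman rho of 0.105 across pairs from the same libraries.

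In 12 pairs the lincRNA and a coding gene start within 1000 bases of each other on opposite strands, an arrangement in which a shared promoter region is often transcribed both ways. None of the 12 lincRNAs or their neighbours was called, and the sign was the same in 4 of the 12 (rho -0.21). RP11-37B2.1, now RIPK2-DT, was 18.8 to 20.6 CPM at 24 h, against 25.2 to 27.7 CPM at 0 h, without overlap (-0.41 ± 0.13, adjusted p = 0.11). RIPK2, the kinase that signals from NOD receptors, lies 20 bases away. It was 56.2, 58.2 and 65.1 CPM at 24 h, against 48.2, 51.4 and 55.1 CPM at 0 h (0.22 ± 0.11, adjusted p = 0.32). LINC01184, now SLC12A2-DT, was 10.2, 8.54 and 12.1 CPM at 24 h and 11.4, 15.1 and 13.2 CPM at 0 h (-0.36 ± 0.19), beside the chloride cotransporter gene SLC12A2 at -0.18 ± 0.11. MAPKAPK5-AS1 was 6.27, 6.08 and 7.82 CPM at 24 h and 4.79, 5.29 and 5.65 CPM at 0 h (0.36 ± 0.23), beside the stress-kinase gene MAPKAPK5 at -0.24 ± 0.11.

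**Figure D5:**
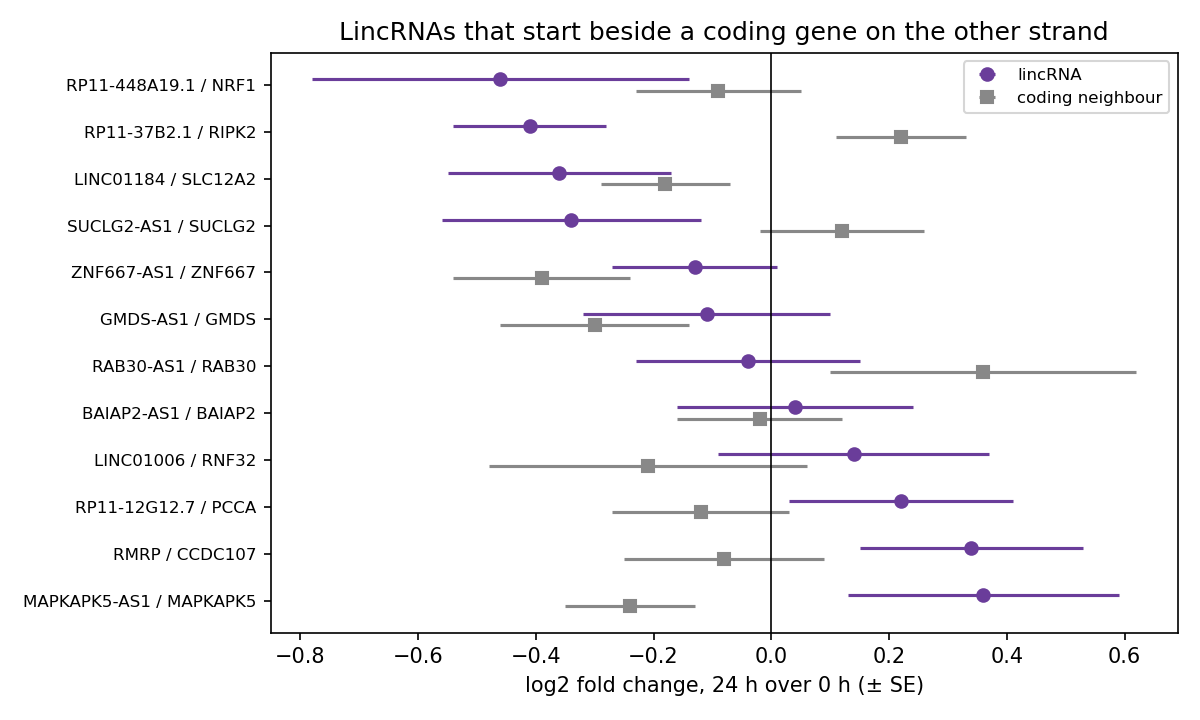
Fitted log2 fold change, 24 h over 0 h, with its SE (x axis) for 12 lincRNAs (purple circles) and the coding gene that starts within 1000 bases on the other strand (grey squares), 1 pair per row. Signs match in 4 of the 12 rows, and no RNA shown was called.

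RefSeq promoter windows, 250 bases before to 50 after the start, matched 49 of the 110, and MIR3142HG was the only called RNA among them. Its window is shown because its RNA fell, with 2 stretches in capitals in this order: TGACNNNGC, the core of the antioxidant response element, and the NF-kB consensus, which was searched only after the window had been seen. The RefSeq start lies inside the longer GENCODE 29 gene.
MIR3142HG promoter (GRCh38.p14 chr5:160468001-160468300, plus strand): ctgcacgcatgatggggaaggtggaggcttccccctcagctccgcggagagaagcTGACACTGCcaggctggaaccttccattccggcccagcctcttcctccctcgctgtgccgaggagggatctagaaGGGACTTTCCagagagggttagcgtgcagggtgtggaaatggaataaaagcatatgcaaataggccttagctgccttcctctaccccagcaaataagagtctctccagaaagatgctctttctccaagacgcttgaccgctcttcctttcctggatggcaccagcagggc
On either strand, TGACNNNGC was found in 10 of the 49 windows (20.4%) and in 13.3% of all 35116 RefSeq windows. The NF-kB consensus was found in 5 of the 49 (10.2%) and in 11.3% of all. The AP-1 letters TGANTCA were in 9 of the 49 (18.4%) and in 7.7% of all. Among the 9 were LINC-PINT, LUCAT1, MIR155HG, MIR181A1HG, MIR4435-2HG, LINC00152 and LINC00973. The windows of MIR4435-2HG and LINC00152 share the same sequence around the match, so these 2 are not separate cases. The LINC00973 window (chr3:98914316-98914615) lies wholly upstream of its GENCODE 29 gene, which starts at 98981058. So does the window of RP11-30P6.6, another of the 9. GGGCGG, the SP1 box, was in 26 (53.1%) and in 45.0% of all, and TATAAA in 8 (16.3%) and in 11.5% of all. TGATGNAAN, the C/EBP-ATF element, was in 1 (2.0%) and in 3.6% of all, and neither TGACGTCA, the cyclic AMP element, nor TTTNGCGC, the E2F site, was in any of the 49 (each in 1.8% of all). A match is a stretch of letters only.

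The median spread between libraries was wider at 0 h, though not for every lincRNA. RMRP had an SD of 3460 CPM at 24 h and 269 CPM at 0 h. The median coefficient of variation of the 110 was 14.0% at 24 h and 16.6% at 0 h, and 10.5% at 0 h without the third library. In that library 6 lincRNAs were over 2 times lower than in both other 0 h libraries, among them RP11-775H9.2 and GS1-124K5.11, and so were 1.7% of all genes tested. RP11-775H9.2 was 7.09, 2.75 and 4.39 CPM at 24 h and 10.8, 19.2 and 4.41 CPM at 0 h, with overlap, and its difference of -1.28 ± 0.41 did not pass (adjusted p = 0.107, edgeR's quasi-likelihood test). GS1-124K5.11 differed by -1.02 ± 0.41 (adjusted p = 0.202).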

How the data were processed

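Read counts and FPKM per gene were used for 6 libraries. The deposited counts are whole numbers, and the deposited FPKM values are rounded to hundredths. The submitters' processing notes name GRCh38, TopHat2, bcl2fastq and edgeR without versions. A counter, an annotation release and a strand rule are not given in the sources used, so antisense, overlapping and near-copy genes are uncertain. The labels' protocols describe directional libraries.

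Libraries at 24 h (3) were set against those at 0 h (3) with edgeR 4.0.16 (R 4.3.3, limma 3.58.1), quasi-likelihood test, TMM scaling, filterByExpr and Benjamini-Hochberg adjustment over 13389 genes, with a call at an adjusted p under 0.05. Printed CPM are TMM-scaled unless said to be of the library total. Alternatives were other scalings and filters, DESeq2 1.42.0, limma on log2(FPKM + pseudocount) of 1 or 0.1, a replicate block and libraries left out. The fit was tested on simulated data.

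Genes were matched by identifier to GENCODE 29 (108 of 110; CCAT1 and RP11-160O5.1 were unmatched), near copies by BLAST+ 2.17.0, and promoters and microRNAs to RefSeq. A near copy has at least 95% identity. The members and lists were chosen with earlier results of these data known. Named are the called members, the 10 with the highest FPKM and the members of lists of lncRNAs with described roles. Any other member whose difference is printed is to be read as named after its values were seen, also where this is not said. These include members named only for a coding neighbour or for the spread between libraries. Separate cultures are not stated for the libraries of a group, and the series' design mentions 2 biological replicates, so p-values measure only the spread between these libraries, which may be technical. Counts had no molecular identifiers, and their precision, at 200 or more counts per gene over 6 libraries, covers counting error only. Deviations from the group means correlated at 0.241, -0.0199 and 0.422 between same-numbered libraries of the 24 h and 0 h groups. Between libraries with different numbers the correlations ran from -0.368 to 0.226. These values do not settle whether the numbers are pairs, and the labels do not say so. The numbers were therefore used only in an alternative fit.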

Additional observations from a re-analysis of the deposited data

How the results depend on the processing

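The counts of called lincRNAs moved with most choices, while none of the 6 called lincRNAs reversed its direction under the 19 alternatives. Against 6 lower, 0 higher and 2 at least 2-fold lower, total counts without TMM gave 3 lower (1.82% of all genes). No filter on low counts gave 10 lower and 3 higher (1.38% and 1.21% of all genes). DESeq2 gave 2 lower (1.63% of all genes), and the FPKM denominators 10 higher (17.6%). The 3 limma fits on FPKM gave 0 lower and 0 at least 2-fold lower (0.035% to 0.269% of all genes lower). At a pseudocount of 0.1, 1 was higher (0.787% of all genes). At an unadjusted p under 0.05 edgeR had 20 lower (9.93% of all genes). Leaving out 1 library gave 1 to 15 lower, 0 to 2 higher and 1 to 6 at least 2-fold lower. Of all genes, 0.672% to 6.72% were then lower and 0.153% to 4.18% higher. The high ends all came without the third 0 h library. Leaving out both libraries numbered 3 gave 11 lower and 6 at least 2-fold lower, where 4.02% of all genes were lower. With the replicate number as a block, 15 were lower, 2 higher and 3 at least 2-fold lower. Of all genes, 7.16% were then lower and 5.52% higher. The labels do not say that the numbers pair the samples, and the correlations given above do not settle it. The summed level had a ratio of 1.21 and of 1.04 to 1.37 with 1 library left out, and reversed to 0.951 without RMRP and to 0.94 without RMRP, TERC, RNU11 and BCYRN1, choices made after seeing the data. Over the 32 named lincRNAs, 540 values stayed on their side of the threshold, 52 lost the call and 16 gained it. Most of the 540 belong to lincRNAs that were not called, and all 52 belong to the 6 called. Of the 19 alternatives, 16 called RP11-301G19.1, 15 AL691447.2 and 9 RNU11. MIR3142HG and RP11-79H23.3 were called in 8 each, and CTC-444N24.11 in 6. The share called lower was 5.08% among lincRNAs with a count sum under 400 and 5.88% among those at 400 or more.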
